A study of Mus musculus with 4 samples.

Results

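The antioxidant defence controlled by NRF2 was examined at the chromatin level, through the open regions found at 9 genes: Nfe2l2, Keap1, Hmox1, Nqo1, Gclc, Gclm, Slc7a11, Srxn1 and Txnrd1. Peaks of 4 ATAC-seq libraries were merged wherever they overlapped by at least 1 bp, and every merged region that overlapped one of these gene bodies (GENCODE, mm10) or the 25 kb on either side of it was kept. This gave 72 of 82641 regions in all. ATAC-seq marks open chromatin with a transposase, and the libraries came from epidermal keratinocytes sorted from the skin of female mice, 8 to 12 weeks of age on a C57BL/6 background, after daily application of a cream with 5% imiquimod for 8 days. There were 2 WT and 2 Mapk8-KO libraries, and the study compared them to ask how the loss of JNK1, the kinase encoded by Mapk8, alters accessibility in inflamed epidermis. Per the study's methods, the floxed Mapk8 gene was removed by Cre under the keratin 14 (KRT14) promoter, littermates served as controls, and EpCam-positive cells with high CD49f were sorted from suspensions that were also stained for CD45, CD31 and CD140a. Both groups received imiquimod, so no untreated state was compared, and peak lists do not show whether Mapk8 exons were lost.

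NRF2, the product of Nfe2l2, is a transcription factor that KEAP1 holds in the cytoplasm and delivers to degradation. Oxidants and electrophiles modify KEAP1, and NRF2 then enters the nucleus, pairs with a small MAF protein and binds antioxidant response elements (AREs) near genes for glutathione synthesis, thioredoxin reduction, heme breakdown and quinone reduction. The ARE core, TGACNNNGC, can contain the recognition sequence of AP-1, TGACTCA, so that the same letters may serve Jun and Fos proteins, the nuclear partners of JNK signaling. In the epidermis, this defence is known for its part in protection against ultraviolet light, irritants and inflammation.

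Sequences in which an ARE core contains an AP-1 site, written TGACTCAGC, are shown first because they bring together the letters read by both families of factors. Among regions outside promoters that were called in all 4 libraries, 4 held one anywhere in the region: a pair of regions upstream of Hmox1, one upstream of Gclc and one upstream of Keap1. Each is given from the mm10 genome on the minus strand, 5′ to 3′, with ARE cores in capitals. None of these stretches overlapped an annotated exon. The Hmox1 upstream region at 9712 bp from the gene start held 3 such cores in tandem (chr8:75083919-75084044), whereas the nearer one at 3974 bp held 1 beside a core of another spacer, TGACACAGC (chr8:75089668-75089788). The Gclc core lay at chr9:77750715-77750783 and the Keap1 core at chr9:21257762-21257830.
Hmox1 9712 bp upstream: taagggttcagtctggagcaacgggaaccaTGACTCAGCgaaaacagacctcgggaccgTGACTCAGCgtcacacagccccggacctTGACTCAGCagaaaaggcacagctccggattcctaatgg
Hmox1 3974 bp upstream: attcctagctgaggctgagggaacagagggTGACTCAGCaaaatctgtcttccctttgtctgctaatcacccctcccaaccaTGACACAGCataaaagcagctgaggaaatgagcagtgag
Gclc 3756 bp upstream: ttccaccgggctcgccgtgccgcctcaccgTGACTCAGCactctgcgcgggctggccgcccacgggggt
Keap1 18401 bp upstream: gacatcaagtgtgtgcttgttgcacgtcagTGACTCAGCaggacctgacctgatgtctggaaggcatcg

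A further stretch shows a pair of AP-1 sites in the Srxn1 promoter, which read TGAGTCA, the reverse complement of TGACTCA, on the strand given (chr2:152105402-152105505, plus strand, AP-1 sites in capitals). It is shown because this promoter had the highest mean pileup of the 9, although Gclm was above it in WT 2 and by fold enrichment.
Srxn1 promoter: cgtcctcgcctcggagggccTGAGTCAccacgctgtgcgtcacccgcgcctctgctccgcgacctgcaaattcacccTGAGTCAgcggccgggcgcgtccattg

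Both motifs were then counted over all regions, on either strand and no farther than 100 bp from a region's strongest summit. An ARE core was found in 12 of the 72 regions (16.7%), against 11.9% of all 82641 regions. Within 50 bp of the summit the shares were 6.94% and 6.73%, and over the whole region 31.9% and 22.0%. AP-1 letters, TGACTCA or TGAGTCA, were found in 15 (20.8%), against 23.7% of all regions. The combined TGACTCAGC, which counts under both, was found in 3 (4.17%), against 2.28%. These shares describe letters in a window and not binding.

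The libraries differed in depth more within than between genotypes. The number of fragments covering a summit, its pileup, was recovered from the deposited values, and with WT 1 set to 1 the depth came to 0.694 for WT 2, 1.10 for Mapk8-KO 1 and 0.612 for Mapk8-KO 2. Both number 2 libraries were thus shallow, and a region that was not called in them may be open but undetected at this depth. Pileups below are divided by these factors and given in fragments at the depth of WT 1, in the order WT 1, WT 2, Mapk8-KO 1, Mapk8-KO 2 unless stated as raw. Promoters of 4 of 5 keratinocyte markers were called in all 4 libraries, and Krt5 was not called in Mapk8-KO 2. The Krt14 promoter, of the gene whose promoter drove Cre, ranked at percentile 29.3 and 9.32 of the WT lists and 96.3 and 95.9 of the Mapk8-KO lists. Promoters of the 4 immune markers Ptprc, Cd3e, Cd207 and Lyz2 were called in no library. Among markers of other skin cells, Cdh5, Col1a2 and Tyr were called in none and Pecam1, Pdgfra, Col1a1, Dct and Pmel in all 4. Their part in the results was not tested. In bulk libraries, fewer cells with an open region and less accessibility per cell cannot be told apart.

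The 9 loci were open in both genotypes. Of the 72 regions, 49 were called in all 4 libraries, or 68.1% against 48.6% of all regions, although promoters made up a like share of both sets (26.4% and 26.7%). The libraries held 65, 58, 64 and 54 of the 72 regions, with the fewest in the shallow number 2 libraries. The mean was 2.5 regions lower in Mapk8-KO than in WT, which was less than the gap between libraries of one genotype (two-sided exact permutation p = 0.667, with 0.33 the smallest that 2 against 2 libraries allow). Without WT 1 the difference was 1.0 and without Mapk8-KO 2 it was 2.5, both in the other direction. Among the other 23 regions, 6 were called in 3 libraries, 10 in 2 and 7 in 1. Of those called in 2, 5 were found in both number 1 libraries alone and 0 in both number 2 libraries alone. These 23 regions were weaker, with a median raw pileup of 24 fragments in their highest library against 61 among the 49 shared regions.

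**Figure D1:**
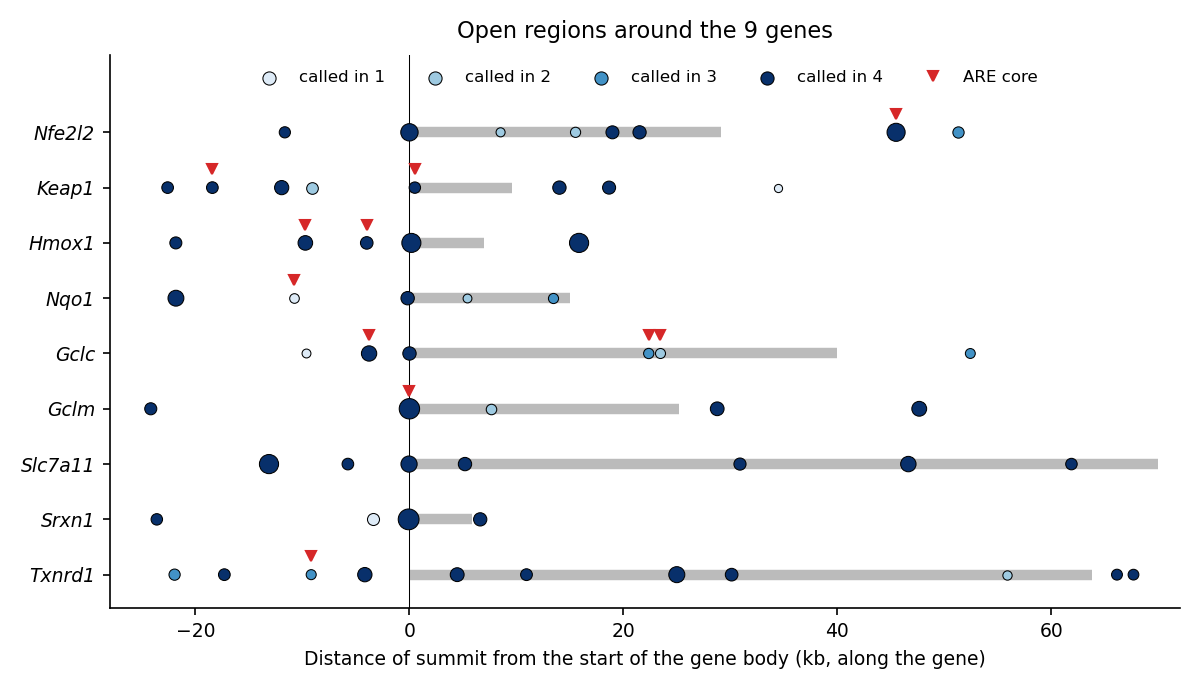
Open regions around the 9 genes, placed by the distance in kb of their summit from the start of the gene body, along the direction of the gene (grey bar, gene body). Shading gives the number of libraries that called a region, point area grows with mean depth-scaled pileup, and red triangles mark an ARE core within 100 bp of the summit. The 13 regions of Slc7a11 beyond 70 kb are not drawn. At every gene but Txnrd1, a region at the start of the gene body was called in all 4 libraries, and the promoter region of Txnrd1 lay 25000 bp inside it.

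No member region passed the test of a difference between genotypes. A limma fit of log2 pileup over all 40159 shared regions, adjusted over all of them, called 0 of the 49 shared member regions at 0.05, against 0.496% of all shared regions lower and 0.11% higher in Mapk8-KO. At an unadjusted p under 0.05 there were 4 (8.16%), against 11.3% of all shared regions, and the lowest adjusted p was 0.112. The fit with the replicate number as a term also called 0 of them, and fits without the variance trend or on fold enrichment called 0 of all regions and so say nothing about the members. Leaving out each library in turn called 2 of 50 without Mapk8-KO 1, against 4.25% of all regions in that fit, and 0 otherwise. The median difference (Mapk8-KO minus WT, log2) was 0.05 over the 49 regions and 0.05 over all shared regions, with 20 members below 0 and 29 above. The standard errors ran from 0.17 to 0.30, and the 95% interval of a typical region reached 0.47 to either side of its estimate (median). Groups did not overlap in 8 regions lower and 13 higher in Mapk8-KO of 49, or 16.3% and 26.5%, near the 16.9% and 24.6% of all shared regions.

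**Figure D2:**
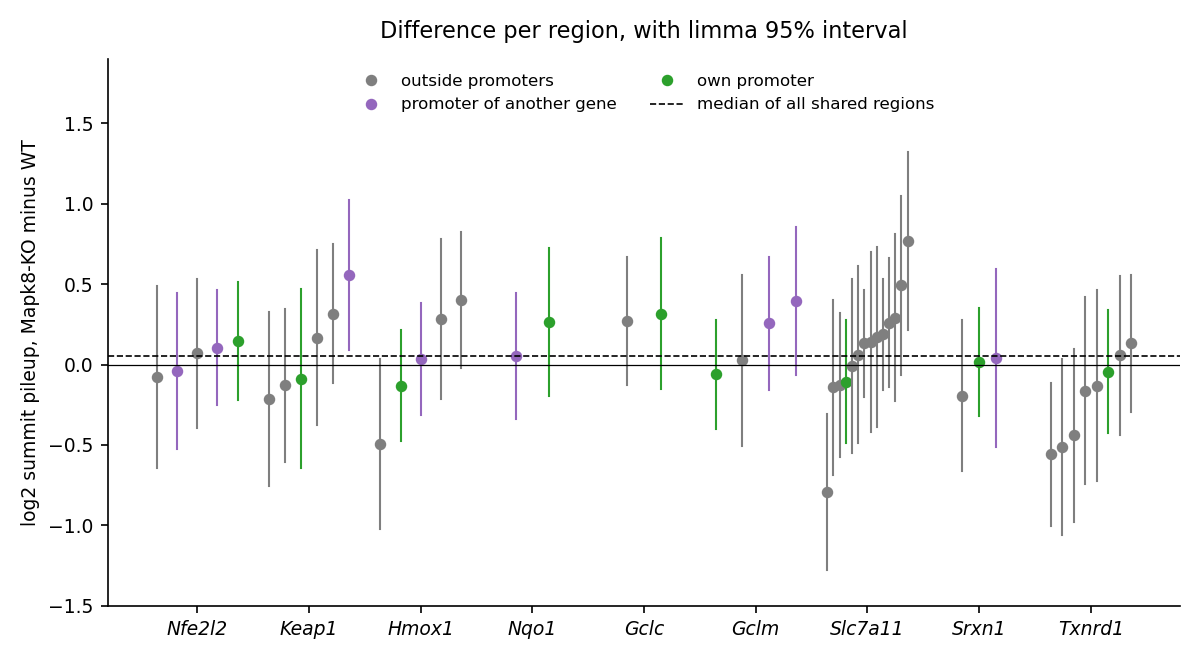
Difference in log2 summit pileup, Mapk8-KO minus WT, for each of the 49 regions called in all 4 libraries, grouped by gene. Bars are 95% limma intervals, colors give the kind of region, and the dashed line is the median of all shared regions at 0.05. Most intervals span 0, and the points of Slc7a11 range from -0.79 to 0.77.

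The 9 promoters were open in both genotypes. Each was called in all 4 libraries, as were 14530 of the 22032 promoter regions among all regions. Differences of the 9 lay between -0.13 and 0.32, with a median of -0.04 on the log2 scale. Srxn1, which encodes sulfiredoxin, a repair enzyme of peroxiredoxins, had the highest level, with a pileup of 149 ± 8.16 (SD, n = 4 libraries). Gclm (143 ± 12.1) and Hmox1 (123 ± 10.9) followed, and each of these overlapped its neighbor in the order. Nfe2l2 (99.0 ± 13.7), Slc7a11 (84.1 ± 9.68) and Txnrd1 (81.9 ± 7.63) formed the next step, below all Hmox1 values. Nqo1 (52.0 ± 5.46) and Gclc (51.8 ± 10.6) overlapped each other and lay below Txnrd1, and Keap1 was lowest at 33.1 ± 2.24. The order was another by fold enrichment, which divides the pileup by its local background. By mean percentile of fold among shared regions, Gclm (91.2) and Srxn1 (89.9) stood highest, Nqo1 (67.8) lay above Slc7a11 (65.4), Txnrd1 (50.9) and Nfe2l2 (42.1), and Gclc (13.3) lay below Keap1 (32.7). The median of this percentile over the 9 promoters was 49.2, 68.7, 64.7 and 72.2 in the 4 libraries. The same median over the 14530 shared promoter regions was 51.4, 54.1, 53.4 and 58.9.

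**Figure D3:**
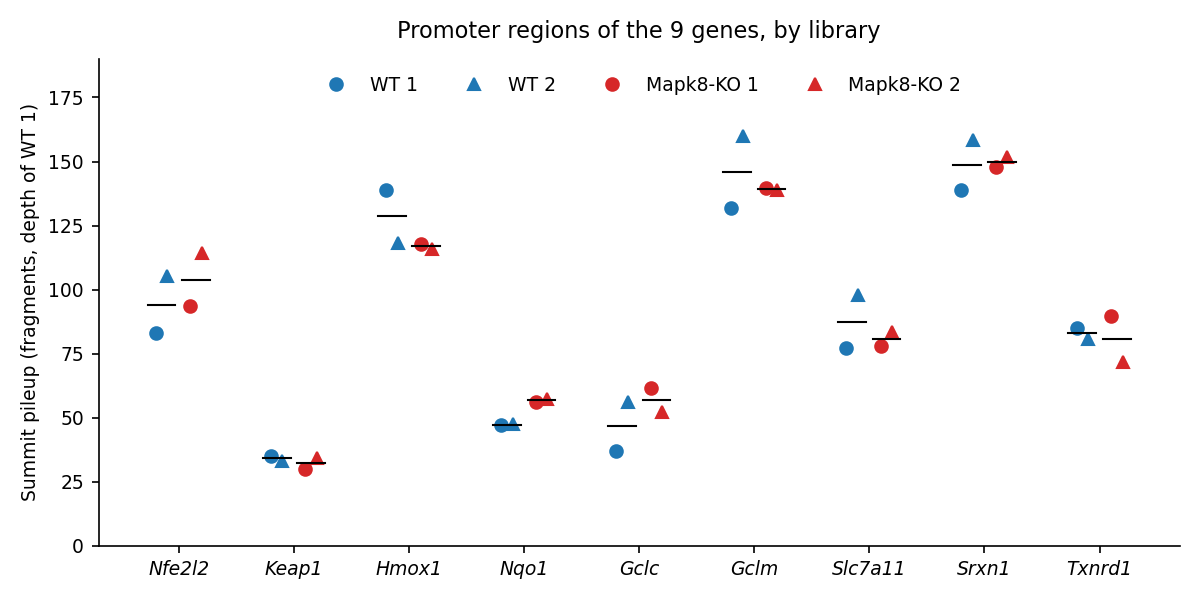
Depth-scaled summit pileup (fragments at the depth of WT 1) of the promoter region of each gene in each library, with the mean of each genotype as a black line. Keap1 lies between 29.9 and 35.0, and Srxn1 between 139 and 159. The groups are apart at Hmox1 and Nqo1 and overlap at the other 7 genes.

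Among the regulators, Nfe2l2 (chr2:75675513-75704641, minus strand), the gene of NRF2 itself, had 8 regions, 5 of them called in all 4 libraries. Its promoter region (chr2:75703340-75705305), with its summit in the first exon, had pileups of 83.0 and 105 in WT and 93.5 and 114 in Mapk8-KO, and the groups overlapped (log2 0.15, SE 0.19, adjusted p = 0.818). Intronic regions at 21520 bp and 18985 bp from the gene start were also open in all 4. The first had 51, 47.6, 54.4 and 49.0, and the second 61.0, 37.5, 49.0 and 44.1. The strongest region outside promoters by percentile, at 51315 bp (chr2:75653173-75653531), carried AP-1 letters and was called in 3 libraries with raw pileups of 32, 23 and 35. It was missing from Mapk8-KO 2, the shallowest library. A region with an ARE core, TGACTCCGC, was the promoter of the neighboring Hnrnpa3, an RNA-binding protein gene, and had 103, 105, 92.6 and 136. Summed over its shared regions, the locus had 334 and 324 in WT and 321 and 372 in Mapk8-KO, so the groups overlapped (ratio 1.05, exact permutation p = 1).

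Keap1 (chr9:21229730-21239361, minus strand), the gene of the repressor, had 8 regions, and 6 were called in all 4 libraries. The promoter region (chr9:21238594-21239430) had an ARE core, TGACTAAGC, 4 bp from its summit. Its pileups were 35.0 and 33.1 in WT and 29.9 and 34.3 in Mapk8-KO, and the groups overlapped (log2 -0.09, SE 0.28, adjusted p = 0.944). By fold enrichment this region was nevertheless ranked higher in WT, at percentiles of 43.6 and 38.0 among shared regions against 22.2 and 26.9 in Mapk8-KO. A region was called ranked higher when the percentiles of one genotype all lay at least 10 points above those of the other. This held for 3 of 49 regions for WT, against 4.65% of all shared regions, and for 2 for Mapk8-KO, against 4.07%. One of the latter lay 14031 bp from the Keap1 start, beyond the end of the gene (chr9:21225020-21225495), at the promoter of the predicted gene Gm16754. It had 43.0 and 40.4 in WT and 56.3 and 67.0 in Mapk8-KO. The groups did not overlap, but the difference missed the threshold (log2 0.56, SE 0.24, adjusted p = 0.323, 0.131 to 0.844 over the alternative fits). The upstream region with the combined ARE and AP-1 core printed above was called in all 4 libraries. It had 38.0 and 38.9 in WT and 35.4 and 31.0 in Mapk8-KO. Both Mapk8-KO values lay below both WT values, without passing the test (log2 -0.21, SE 0.27, adjusted p = 0.819). It was also the strongest region of the locus outside promoters by percentile. Locus sums were 258 and 246 in WT and 264 and 292 in Mapk8-KO, apart but with no p below the 0.33 that the design allows (ratio 1.10, exact permutation p = 0.33). By fold enrichment the direction turned, to a log2 ratio of -0.000528.

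Hmox1 (chr8:75093621-75100589, plus strand) encodes heme oxygenase 1, which degrades heme to biliverdin, iron and carbon monoxide. All 5 of its regions were called in all 4 libraries. The promoter region (chr8:75093271-75094027) had raw pileups of 139 and 82 in WT and 130 and 71 in Mapk8-KO, or 139, 118, 118 and 116 after scaling. WT 1 stood above the other 3, and the groups were separated by less than 1 fragment (log2 -0.13, SE 0.18, adjusted p = 0.828). The upstream region with 3 tandem cores (chr8:75083708-75084330) had 65.0 and 47.6 in WT and 73.5 in each Mapk8-KO library. Both Mapk8-KO values exceeded both WT values, without passing the test (log2 0.40, SE 0.21, 95% interval -0.02 to 0.82, adjusted p = 0.475). The nearer region with a pair of cores (chr8:75089452-75089801) had 35.0 and 44.7 in WT and 49.0 and 47.4 in Mapk8-KO (log2 0.28, SE 0.25, adjusted p = 0.719). Its fold enrichment was low, from 3.37 to 4.91, at percentiles from 0.557 to 8.76 among shared regions. The region farthest upstream, at 21814 bp (chr8:75071371-75072148), had neither motif and went the other way, with 47.0 and 43.2 in WT and 27.2 and 37.6 in Mapk8-KO. It was ranked higher in WT, at percentiles of 77.9 and 81.8 against 45.4 and 54.1, but missed the threshold as well (log2 -0.50, SE 0.27, adjusted p = 0.488, 0.449 to 0.877 over the alternative fits). The locus sum was 388 and 399 in WT and 397 and 395 in Mapk8-KO (ratio 1.01, exact permutation p = 1). That sum includes the promoter of the neighboring replication gene Mcm5, and its direction turned under other scalings.

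Nqo1 (chr8:107388225-107403206, minus strand), the gene of the quinone reductase NQO1, had 5 regions of which 2 were called in all 4 libraries. Its promoter region (chr8:107403016-107403678) had 47.0 and 47.6 in WT and 56.3 and 57.2 in Mapk8-KO. The groups were apart and each pair was close, yet the difference was within the error of the fit (log2 0.26, SE 0.23, 95% interval -0.20 to 0.72, adjusted p = 0.721). The other shared region was the promoter of the neighbor Nob1, a ribosome assembly gene. An ARE core, TGACGCAGC, was found only in a weak region 10802 bp upstream (chr8:107413949-107414139), called in WT 1 alone with 19 fragments. The strongest intronic region by percentile, at 13413 bp (chr8:107389502-107389964), was called in 3 libraries with raw pileups of 23, 25 and 14, and was missing from WT 2. Locus sums were 129 and 121 in WT and 123 and 155 in Mapk8-KO and overlapped (ratio 1.11, exact permutation p = 0.667). The log2 ratio of 0.15 was 0.00323 without Mapk8-KO 2 and 0.31 without Mapk8-KO 1.

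Glutathione is built by glutamate-cysteine ligase, whose catalytic and modifier subunits are encoded by Gclc and Gclm, from cystine imported by the transporter of which Slc7a11 is the light chain. Gclc (chr9:77754535-77794485, plus strand) had 6 regions, 2 of them called in all 4 libraries, and 3 held an ARE core. The upstream region with the combined core (chr9:77750405-77751141) had 65.0 and 67.7 in WT and 87.1 and 73.5 in Mapk8-KO. The groups did not overlap, without passing the test (log2 0.27, SE 0.20, adjusted p = 0.654). The promoter region (chr9:77754390-77755299) had 37.0 and 56.2 in WT and 61.7 and 52.3 in Mapk8-KO, and WT 1 stood below the other 3 (log2 0.32, SE 0.24, adjusted p = 0.653). The remaining ARE cores lay in neighboring intronic regions. The one at 22377 bp (chr9:77776740-77777122, TGACTTAGC) was missing from Mapk8-KO 2 and had 19, 19 and 28 raw fragments in the others. The one at 23417 bp (chr9:77777762-77778016, TGACAGTGC) was called in both Mapk8-KO libraries, with 16 and 18 raw fragments, and in no WT library. It was the only member region specific to Mapk8-KO, or 1 of 72 against 1.65% of all regions, and this count was 0 when the lists were shortened to equal length. The weakest peaks of the lists had 8 to 10 fragments. Locus sums rested on 2 regions, with 102 and 124 in WT and 149 and 126 in Mapk8-KO (ratio 1.22, exact permutation p = 0.33). The groups were apart by less than 2 fragments. The log2 ratio of 0.28 was 0.12 without WT 1, 0.44 without WT 2 and 0.09 with flanks of 50 kb.

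Gclm (chr3:122245557-122270732, plus strand) had 5 regions, 4 of them in all 4 libraries. Its promoter region (chr3:122245262-122246216) was among the most open and had an ARE core, TGACTAAGC, 86 bp from the summit, the same letters as in the Keap1 promoter. Pileups were 132 and 160 in WT and 140 and 139 in Mapk8-KO, with both Mapk8-KO values between those of WT (log2 -0.06, SE 0.17, 95% interval -0.40 to 0.28, adjusted p = 0.934). The strongest region outside promoters lay 24158 bp upstream (chr3:122221110-122221707) at 50, 28.8, 43.6 and 34.3. Locus sums were 295 and 293 in WT and 296 and 336 in Mapk8-KO (ratio 1.08, exact permutation p = 0.33). The high value of Mapk8-KO 2 came with the promoter of the neighbor Dnttip2, at 46.0, 47.6, 45.4 and 83.3. Without Mapk8-KO 1, this promoter was called higher in Mapk8-KO (log2 0.83, adjusted p = 0.0333), in a fit with 1 Mapk8-KO library.

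Slc7a11 (chr3:49892526-50443614, minus strand) held 20 regions, the most of any member, because GENCODE gives it a body of 551089 bp. RefSeq draws the gene from 50364936 to 50499087, and 13 of the 20 regions lay outside that body and its 25 kb flanks. The promoter region (chr3:50443365-50444467) had 77 and 98 in WT and 78.0 and 83.3 in Mapk8-KO and overlapped between genotypes (log2 -0.11, SE 0.19, adjusted p = 0.884). The strongest region outside promoters, 13109 bp upstream (chr3:50456460-50457163), carried AP-1 letters and ranked between percentile 98.0 and 99.1 among shared regions in every library, with 114, 118, 126 and 139 (log2 0.19, SE 0.18, adjusted p = 0.732).

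The widest differences among the 49 shared regions were both intronic in Slc7a11, in opposite directions. At 5206 bp from the gene start (chr3:50438010-50438672) pileups were 79.0 and 50.4 in WT and 50.8 and 26.1 in Mapk8-KO, with neither motif near the summit. The groups touched, as WT 2 and Mapk8-KO 1 had nearly the same value. This region, named after its values were seen, had the lowest adjusted p of any member (log2 -0.79, SE 0.25, adjusted p = 0.112, 0.000967 to 0.918 over the alternative fits). The lowest of these came without Mapk8-KO 1 (log2 -1.27), when the lone Mapk8-KO 2 library was assumed to vary like the others. At 142583 bp (chr3:50300622-50301183) pileups were 30.0 and 21.6 in WT and 42.6 and 44.1 in Mapk8-KO. This region was ranked higher in Mapk8-KO but missed the threshold (log2 0.77, SE 0.28, adjusted p = 0.224, 0.164 to 0.868 over the alternative fits), and it lay outside the RefSeq body and flanks. Another intronic region (chr3:49983838-49984371), with AP-1 letters, was called in both WT libraries at 33 and 19 raw fragments and in no Mapk8-KO library. It was 1 of the 2 regions of 72 specific to WT, against 2.17% of all regions, and the WT-specific count was 1 with lists of equal length. A narrow region with an ARE core, TGACCCTGC, at 163881 bp (chr3:50279630-50279834) was called in Mapk8-KO 1 alone with 39 raw fragments at a fold enrichment of 3.40. Locus sums were 812 and 811 in WT and 828 and 887 in Mapk8-KO (ratio 1.06, exact permutation p = 0.33). With the RefSeq body, the 7 shared regions summed to 424 and 463 in WT and 450 and 439 in Mapk8-KO, and the groups overlapped (ratio 1.00).

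On the thioredoxin side, Srxn1 (chr2:152105516-152111376, plus strand) had 4 regions, 3 of them in all 4 libraries. Its promoter region (chr2:152105131-152105866), with the pair of AP-1 sites printed above, had 139 and 159 in WT and 148 and 152 in Mapk8-KO. The Mapk8-KO values lay between those of WT, and this was the smallest difference of the 9 promoters (log2 0.01, SE 0.17, 95% interval -0.32 to 0.35, adjusted p = 0.989). A further region with a pair of AP-1 sites at 3391 bp upstream was called in WT 2 alone, at 27 raw fragments. The strongest region outside promoters lay 6629 bp from the gene start (chr2:152111859-152112315) at 63.0, 46.1, 45.4 and 49.0. Locus sums were 240 and 233 in WT and 229 and 234 in Mapk8-KO (ratio 0.976, exact permutation p = 0.667).

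Txnrd1 (chr10:82833951-82897712, plus strand) encodes the cytosolic thioredoxin reductase and was the only locus whose summed pileup was lower in Mapk8-KO without overlap. Its sums were 413 and 382 in WT and 368 and 336 in Mapk8-KO (ratio 0.887, exact permutation p = 0.33). Of its 11 regions, 8 were called in all 4 libraries, and 6 of these 8 had differences below 0. The promoter region (chr10:82858363-82859426), at an internal start shared with the predicted gene Gm38560, had 85.0 and 80.7 in WT and 89.8 and 71.9 in Mapk8-KO and overlapped (log2 -0.04, SE 0.20, adjusted p = 0.961). The lower values lay outside the promoter. An intronic region at 4478 bp (chr10:82838225-82838687), also named after its values were seen, had 65.0 and 70.6 in WT and 49.9 and 42.5 in Mapk8-KO (log2 -0.56, SE 0.23, adjusted p = 0.293, 0.0994 to 0.868 over the alternative fits). A region 17282 bp upstream (chr10:82816509-82816958) had 47.0 and 37.5 in WT and 35.4 and 24.5 in Mapk8-KO and was ranked higher in WT (log2 -0.51, SE 0.28, adjusted p = 0.488, 0.148 to 0.952 over the alternative fits). An intronic region at 55872 bp (chr10:82889654-82889891) was the other region specific to WT, with 16 and 12 raw fragments. None of these regions held an ARE core or AP-1 letters within 100 bp of the summit. The ARE core of the locus, TGACAGAGC, lay 9165 bp upstream in a region (chr10:82824631-82824927) missing from Mapk8-KO 2, with 29, 12 and 22 raw fragments in the others. The strongest region outside promoters, 4153 bp upstream (chr10:82829669-82830137), had 64.0 and 54.8 in WT and 64.4 and 65.3 in Mapk8-KO, the latter above both WT values (log2 0.13, SE 0.22, adjusted p = 0.870).

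**Figure D4:**
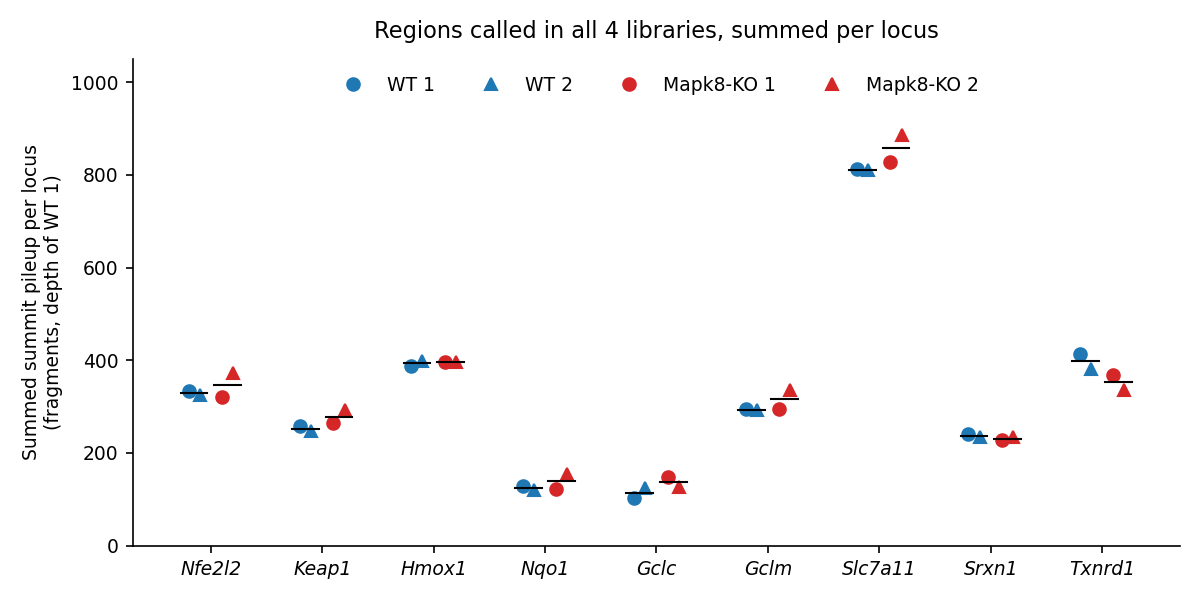
Summed depth-scaled pileup (fragments at the depth of WT 1) over the regions of each locus that were called in all 4 libraries, by library, with the mean of each genotype as a black line. Values run from 102 at Gclc in WT 1 to 887 at Slc7a11 in Mapk8-KO 2. Only Txnrd1 has both Mapk8-KO values below both WT values, and at Keap1, Gclc, Gclm and Slc7a11 both lie above.

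Set side by side, summed pileups did not overlap between genotypes at 4 of 9 loci higher in Mapk8-KO and at 1 of 9 lower. The same held at 32.6% and 9.15% of the 16835 protein-coding genes with shared regions, whose median ratio was 1.07 with a 10th to 90th percentile range of 0.913 to 1.24. The ratios of 8 of the 9 loci lay within that range, and Txnrd1, at 0.887, lay below it. That range was computed with all 4 libraries and 25 kb flanks only. The ratio of Txnrd1 was 0.945 without Mapk8-KO 2 and 0.943 with flanks of 50 kb. It was 0.905 without WT 1, 0.865 without WT 2, 0.847 without Mapk8-KO 1 and 0.908 with flanks of 10 kb. With depth from summed pileups it was 0.856, and by fold enrichment 0.879. Gclc gave 1.36 without WT 2 and 1.31 without Mapk8-KO 2, but 1.09 without WT 1 and 1.20 without Mapk8-KO 1. These ratios moved with single libraries at most loci. On the log2 scale, leaving out 1 library gave -0.24 (without Mapk8-KO 1) to -0.08 (without Mapk8-KO 2) for Txnrd1, 0.10 (without Mapk8-KO 2) to 0.21 (without Mapk8-KO 1) for Keap1, and 0.04 to 0.20 in the same order for Gclm. Slc7a11 ran from 0.05 without WT 1 to 0.13 without Mapk8-KO 1, and Srxn1 from -0.04 without WT 1 to -0.02 without Mapk8-KO 2. The lowest p adjusted over the 9 genes was 0.6. Over all 49 regions together the log2 ratio was 0.05 and turned to -0.00418 when depth was taken from summed pileups and to -0.03 for fold enrichment.

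The same chromatin was described for 33 other genes of the pathway, which comprise partners and adaptors such as Bach1, the small MAF genes and Cul3, peroxide and superoxide enzymes, NADPH-producing enzymes, ferritins, glutathione transferases and transporters. Their 236 regions included 139 called in all 4 libraries, or 58.9% against 48.6% of all regions. Promoters made up 35.6% of the 236, against 26.7% of all regions. The own promoter was among the 139 for 30 of 33 genes. The limma fit called 0 of the 139 (lowest adjusted p = 0.146), with 12 (8.63%) at an unadjusted p under 0.05, against the 11.3% of all shared regions. The median difference was 0.09 on the log2 scale, with 51 below 0 and 88 above. Regions specific to a genotype numbered 2 for WT and 0 for Mapk8-KO of 236, against 2.17% and 1.65% of all regions. Of the 139 shared regions, 3 ranked higher for WT and 10 for Mapk8-KO, against 4.65% and 4.07% of all shared regions. Summed per gene, 22 ratios were above 1 and 11 below, and groups did not overlap for 11 genes higher (33.3%) and 2 lower (6.06%) in Mapk8-KO. These shares and the median ratio of 1.06 were close to the 32.6%, 9.15% and 1.07 of all protein-coding genes. The range ran from 0.917 at Cul3, the ubiquitin ligase scaffold that works with KEAP1, to 1.32 at Gpx1, the gene of glutathione peroxidase 1. Cul3 had 145 and 163 in WT and 127 and 155 in Mapk8-KO and overlapped, whereas Gpx1 had 173 and 159 in WT and 197 and 242 in Mapk8-KO and did not.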

How the data were processed

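Each ATAC-seq library came from 1 independent sample. Per the study's methods, the authors aligned paired reads to mm10 with Bowtie2, removed multiple and poor alignments, and called peaks with MACS2. The options they list name no control, and each library has its own deposited peak list. No shift for the transposase is stated. The deposited lists give a fold enrichment ratio of summit pileup over background, −log10 p and −log10 q values, a score derived from q, and the summit offset in bp. Total read numbers are not in the sources used here.

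The pileup was recovered by solving the deposited fold and −log10 p values together, and at least 99.996% of peaks gave whole fragments within 0.05. Depth is the median over regions called in all 4 libraries. Log2 pileups, centered on each library's median, were tested with limma 3.58.1 (R 4.3.3, variance trend, Benjamini-Hochberg adjustment). This test was chosen because reads per region, which the study tested with DESeq2, were not used here. The scripts were tested on simulated data. Genotypes, with 2 libraries each, were compared by exact permutation tests, two-sided (scipy 1.17.1). Exact permutation p-values measure the spread between these libraries. Limma standard errors and p-values draw mostly on a variance trend fitted over all shared regions. They therefore say less about the spread of a single region between its own libraries. Promoters lay within 2 kb of one of 77237 starts in GENCODE vM21. Sequences were read from RefSeq's GRCm38.p6 assembly, which is mm10.

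The members and lists were chosen with earlier results of these data known. Named regions were the promoters, the top region outside promoters by mean percentile in each locus, those specific to a genotype, ranked higher or called, and those with an ARE core. The intronic regions described for Nfe2l2, the region 3391 bp upstream of Srxn1 and the Dnttip2 promoter lay outside these criteria. So did the regions marked as named after their values were seen. The alternatives varied list length, q, coverage, flank, nearest start, rank gap, value ranked, depth, variance trend, replicate block and libraries left out. The RefSeq body of Slc7a11 was added after the data had been seen.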

Additional observations from a re-analysis of the deposited data

How the results depend on the processing

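Of 174 alternative values over 21 results, 137 kept their direction and side of the threshold or, for counts, stayed near the main count, while sizes could differ. Another 27 moved and 10 reversed. With lists of equal length, WT-specific regions were 1 and Mapk8-KO-specific 0. With only regions nearest to the listed gene's start, 16 of 25 were called in all 4 libraries and 0 were WT-specific. Regions ranked higher in WT numbered 1 with a gap of 20 points, 1 by percentile within the whole list, 1 within 10 kb and 5 within 50 kb, and those ranked higher in Mapk8-KO 1 by percentile within the whole list. The median log2 difference was 0.0052 for fold enrichment. ARE cores were found in 5 regions (6.94%) within 50 bp and in 23 (31.9%) over the whole region, against 6.73% and 22.0% of all regions. Summed over all loci, the log2 ratio was -0.00418 with depth from summed pileups and -0.0257 for fold enrichment. Hmox1 gave -0.0431 and -0.0493 under the same changes, Nfe2l2 -0.0629 and Keap1 -0.000528 for fold enrichment. The scaling by summed pileups moved the median of all shared regions from 0.0535 to 0.00128.

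Leaving out each library in turn, the difference in regions called ran from -7.5 to 2.5 (1 without WT 1), WT-specific regions from 3 to 5, and Mapk8-KO-specific regions from 1 to 3. Regions ranked higher ran from 4 to 8 for WT and from 4 to 9 for Mapk8-KO, limma calls from 0 to 2, and the median log2 difference from 0.00206 to 0.116. Locus ratios ran from -0.0415 to 0.0432 for Hmox1 and from -0.00276 to 0.178 for Nfe2l2. Over all shared regions, limma calls numbered 243, and 0 without the trend (3987 at an unadjusted p under 0.05), 0 for fold enrichment, and 10 to 1719 with a library left out. The cause was not tested.

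Whether libraries of the same number were prepared together is not stated and was not tested. Changes from number 1 to 2 correlated between genotypes at 0.0392 (Pearson r) across 40159 regions. A shift in depth common to both number 2 libraries would not show in that value. With the replicate block, the difference in regions was -2.5 (exact sign-flip p = 0.5), members called were 0, ranked regions 4 and 2, the locus ratio 0.0482, and calls over all regions 386. The weakest peaks had 8 to 10 fragments, and the part of depth in missing calls was not tested.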
